A study of Oryctolagus cuniculus with 6 samples.

Results

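The genes described here are the subunits of the transcription factor NF-kB, its feedback inhibitors and the main TNF receptor in rabbit retina with proliferative vitreoretinopathy (PVR). They were chosen by name, as rows of the deposited tables whose gene identifier equals NFKB1, NFKB2, REL, RELA, RELB, NFKBIA, NFKBIZ, TNFAIP3, TNFRSF1A or BCL3. Of these 10 names, 9 had a row among the 28788 genes of the tables. BCL3 had no row under its name and was not analysed here. RNA was sequenced from 3 normal retinas and 3 retinas of the PVR model. In the model, adult rabbits had a puncture of the sclera, a partial removal of the vitreous and an injection of platelet-rich plasma into the vitreous cavity. The sources used here give no sham operation for the normal group, so the puncture, the vitreous removal and the plasma cannot be told apart. They also give no strain, sex or time of collection, and they do not say whether each sample is a separate animal.

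NF-kB is a pair of Rel proteins, built from the products of NFKB1, NFKB2, REL, RELA and RELB. In a resting cell the pair is held in the cytoplasm by inhibitory IkB proteins such as the product of NFKBIA. Signals from TNF, interleukin-1 and Toll-like receptors activate the IkB kinase, the inhibitor is degraded, and the pair enters the nucleus. NFKBIA and TNFAIP3 are themselves targets and switch the signal off again, whereas NFKBIZ encodes a nuclear IkB protein that is induced by the same signals and helps to turn on later inflammatory genes. In the retina, microglia, Mueller glia and the pigment epithelium are known to use this pathway after injury. RNA levels do not show how much of the protein is in the nucleus.

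All 6 libraries carried the RNA of photoreceptors, with a summed level of 28700 to 47500 CPM (counts scaled to a common library total) over 7 marker genes, so the retinal label was met. Each library held between 31904593 and 43035080 counted reads. Normal replicate 2 stood apart by its lens genes, with a summed level of 32700 CPM over 8 genes against 12.2 to 15.6 CPM in the other normal samples and 262 to 300 CPM in PVR. In bulk RNA, a change in the number of cells of a type and a change in the RNA of each cell cannot be told apart.

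NFKBIZ was the NF-kB gene that rose in PVR. Its expression per length (fragments per kilobase of gene, scaled to the library total, FPKM) was 2.09, 1.91 and 3.25 in the 3 normal retinas and 8.09, 6.63 and 6.43 in the 3 PVR retinas. The lowest PVR sample was thus far above the highest normal sample. In raw counts these were 175, 167 and 279 reads in normal retina and 554, 460 and 594 in PVR. The mean FPKM was 2.42 ± 0.725 (SD, n = 3) in normal retina and 7.05 ± 0.908 (SD, n = 3) in PVR. The log2 fold change was 1.48 (standard error, SE, 0.23), a 2.79-fold increase with a 95% interval of 1.93 to 4.04. In edgeR's quasi-likelihood test the adjusted p (Benjamini-Hochberg, over all genes) was 0.0332, and NFKBIZ held position 145 of 18697 genes ranked by p. It was 1 of 9 members past an adjusted p of 0.05 in this direction, against 1.09% of all genes tested, and it was also past the log2 fold change of 1 that the study's methods require, as were 0.69% of all genes in this direction. In either direction, 1.7% of all genes tested passed the adjusted p. No member was lower past the test, against 0.615% of all genes. The adjusted p of NFKBIZ was above 0.05 when single samples were left out, at 0.112 without normal replicate 1, 0.102 without normal replicate 2, the sample with the lens genes, 0.203 without PVR replicate 1 and 0.0722 without PVR replicate 2, while the log2 fold change stayed between 1.25 and 1.74 in all 15 other settings tried.

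**Figure D1:**
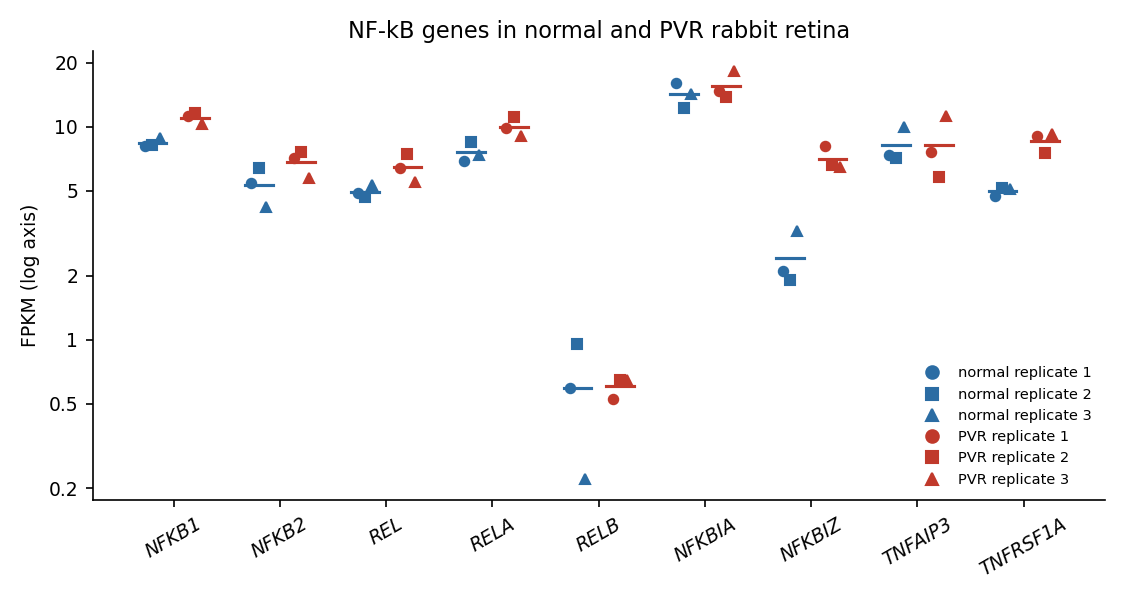
FPKM (log axis) of the 9 NF-kB genes in each of the 3 normal (blue) and 3 PVR (red) retina samples, with horizontal lines at the group means and a marker shape for each replicate. NFKBIZ has its 3 PVR samples between 6.43 and 8.09 and its normal samples between 1.91 and 3.25, whereas the groups overlap for NFKB2, RELB, NFKBIA and TNFAIP3.

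TNFRSF1A, the receptor through which TNF reaches NF-kB in most cells, had the next largest difference. Its FPKM was 4.70, 5.14 and 5.07 in normal retina, a narrow range, and 9.002, 7.51 and 9.20 in PVR. No PVR sample came down to the normal range. Its log2 fold change was 0.72 (SE 0.14), or 1.64-fold with a 95% interval of 1.32 to 2.05. The unadjusted p was 0.001 and the adjusted p was 0.0541 from edgeR's quasi-likelihood test, so TNFRSF1A did not pass. Of the 15 other settings, 4 brought it past the threshold, among them DESeq2, the tool named in the study's methods, with an adjusted p of 0.000297. DESeq2 called 2 of the 9 members, NFKBIZ and TNFRSF1A, and 5.66% of all genes as higher. The highest adjusted p among the settings was 0.271, without PVR replicate 1. The second TNF receptor, TNFRSF1B, which is best known from immune cells, was scarce, with 32, 79 and 48 counts in normal retina and 102, 77 and 86 in PVR. TNFRSF1B had a log2 fold change of 0.86 (SE 0.40, edgeR adjusted p = 0.263). Per length, TNFRSF1A stood at 11.1 ± 4.06 times the level of TNFRSF1B in normal retina and at 9.32 ± 2.51 times in PVR (SD, n = 3 each), and these ratios overlapped. TNF itself had at most 11 counts in any sample, with 0, 2 and 0 in normal retina and 11, 1 and 1 in PVR, and was too low to be tested.

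The subunits NFKB1, RELA and REL each had their 3 PVR samples above the 3 normal samples, but by small amounts. NFKB1, the precursor of the subunit without an activating domain, had FPKM values of 8.11, 8.19 and 8.84 in normal retina and 11.2, 11.6 and 10.3 in PVR. RELA, the main activating subunit, had 6.88, 8.51 and 7.39 in normal retina and 9.86, 11.1 and 9.08 in PVR. REL, an activating subunit best known from lymphocytes, had 4.89, 4.68 and 5.31 in normal retina and 6.38, 7.45 and 5.49 in PVR. For REL and RELA the gap between the groups was thus narrow. The log2 fold changes were 0.32 for NFKB1 (SE 0.09), 0.33 for RELA (SE 0.14) and 0.30 for REL (SE 0.11). None passed the test, with adjusted p of 0.106, 0.228 and 0.177 in the same order from edgeR, and none passed in any of the 15 other settings. The upper ends of the 95% intervals were 1.44-fold for NFKB1, 1.56-fold for RELA and 1.47-fold for REL, so a doubling lay outside the interval of each. The unadjusted p of each of the 3 was under 0.05, which was so for 5 of the 9 members and for 11.3% of all genes in this direction.

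NFKB2 and RELB, which pair with each other in the slower, non-canonical branch of the pathway, overlapped between the groups. NFKB2 had FPKM values of 5.46, 6.37 and 4.21 in normal retina and 7.09, 7.59 and 5.76 in PVR, and only the lowest PVR sample lay below the highest normal one. For NFKB2 the log2 fold change was 0.27 (SE 0.19, edgeR adjusted p = 0.441). RELB was the scarcest member, with 55, 93 and 21 counts in normal retina and 40, 50 and 66 in PVR. One normal sample lay above all PVR samples and another below them. The log2 fold change of RELB was -0.04 with a 95% interval from -1.26 to 1.17, so neither a doubling nor a halving was excluded at this depth and spread. Its sign changed in 6 of the 15 other settings, as given with the settings at the end.

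The feedback inhibitors NFKBIA and TNFAIP3 overlapped between the groups as well. NFKBIA had FPKM values of 16.1, 12.3 and 14.3 in normal retina and 14.7, 13.9 and 18.2 in PVR. Only PVR replicate 3 was above the normal range. NFKBIA had a log2 fold change of 0.07 (SE 0.16, edgeR adjusted p = 0.832), and the 95% interval ran from 0.81-fold to 1.35-fold. TNFAIP3 encodes an enzyme that edits ubiquitin chains and stops TNF signalling, and its FPKM was 7.39, 7.14 and 10.02 in normal retina and 7.61, 5.79 and 11.3 in PVR. PVR replicate 3 was the highest of all 6 samples and PVR replicate 2 the lowest, which gave TNFAIP3 the widest spread in PVR, a coefficient of variation of 34.0%. The log2 fold change was -0.05 (SE 0.25, edgeR adjusted p = 0.919), with an interval from 0.642-fold to 1.45-fold. Its sign changed without normal replicate 3, where it was 0.11, and without PVR replicate 2, where it was 0.15, and it was 0.00 without PVR replicate 1.

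**Figure D2:**
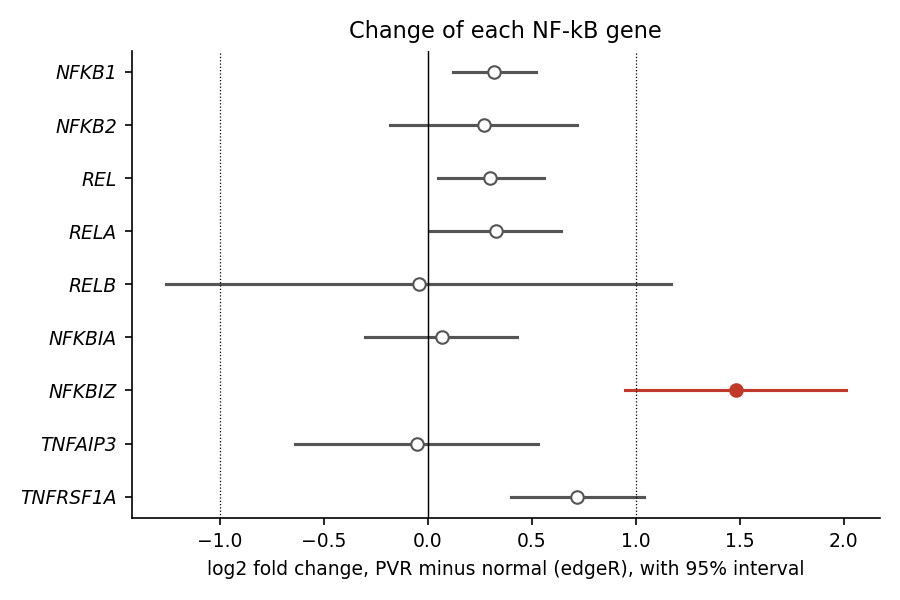
Log2 fold change of each NF-kB gene, PVR minus normal, from edgeR with its 95% interval (n = 3 in each group); the filled red point is past an adjusted p of 0.05 and dotted lines mark a doubling and a halving. NFKBIZ lies at 1.48 and TNFRSF1A at 0.72, while the other 7 lie between -0.05 and 0.33.

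Over the 9 members, 7 had a log2 fold change above 0 and the median was 0.30, whereas 48.9% of all genes tested were above 0 and their median was -0.01. In FPKM, 5 of the 9 members (NFKBIZ, TNFRSF1A, NFKB1, RELA and REL) had every PVR sample above every normal sample, as did 17.0% of all genes tested. None had every PVR sample below, against 9.69% of all genes. By exact permutation of the samples (two-sided, difference of means), p was 0.1 for each of these 5, the smallest p that 3 samples against 3 allow, and 0.18 after Benjamini-Hochberg adjustment over the 9 members. Since the FPKM values are scaled to total reads and edgeR's TMM factors were slightly higher in PVR (1.01 to 1.04) than in normal retina (0.953 to 0.998), the ratios of mean FPKM, such as 1.31 for NFKB1, were a little above the 1.25-fold change fitted by edgeR.

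Ordered by FPKM, NFKBIA was the most abundant member in both groups. In normal retina it had a mean of 14.2 ± 1.90 and was followed by NFKB1 (8.38 ± 0.396), TNFAIP3 (8.18 ± 1.59) and RELA (7.59 ± 0.836), which did not differ beyond their spread (SD, n = 3). NFKB2 (5.35 ± 1.08), TNFRSF1A (4.97 ± 0.236) and REL (4.96 ± 0.323) formed the next step and also did not differ beyond their spread. NFKBIZ (2.42) and RELB (0.590 ± 0.368) were lowest. In PVR, NFKBIZ moved from position 8 to position 6 and TNFRSF1A from position 6 to position 4, but TNFRSF1A and TNFAIP3 did not differ there beyond their spread, nor did NFKBIZ, NFKB2 and REL. REL had the highest counts of the members, up to 2675 in PVR replicate 2, but its gene length of 11092 bases in the deposited values placed it low per length.

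The share that each subunit took of the subunit RNA overlapped between the groups. Summed over the 5 subunits, the FPKM was 25.9, 28.7 and 26.0 in normal retina and 35.0, 38.4 and 31.3 in PVR, with no overlap. NFKB1 took 31.3% ± 2.75 of this sum in normal retina and 31.7% ± 1.42 in PVR. RELA took 28.2% ± 1.58 and 28.7% ± 0.508, and REL took 18.5% ± 2.101 and 18.4% ± 0.951 (SD, n = 3). The share of NFKB2 and that of RELB overlapped in the same way, and RELB never took more than 3.33%. Within a sample, such ratios do not depend on its depth.

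Of NFKBIA, TNFAIP3 and NFKBIZ, only NFKBIZ separated the groups when set against that sum. NFKBIA stood at 0.620, 0.428 and 0.551 of the summed subunit FPKM in normal retina and at 0.418, 0.361 and 0.583 in PVR, and the groups overlapped. TNFAIP3 overlapped as well, with 0.307 ± 0.0710 in normal retina and 0.243 ± 0.107 in PVR. NFKBIZ stood at 0.0807, 0.0664 and 0.125 in normal retina and at 0.231, 0.173 and 0.206 in PVR, with no overlap. The ratio of NFKBIZ to NFKBIA was 0.130, 0.155 and 0.227 in normal retina and 0.552, 0.478 and 0.353 in PVR, so each PVR retina held more NFKBIZ RNA per NFKBIA RNA than any normal retina. Both ratios use the NFKBIZ values given above, so their separation is no result apart from the rise of NFKBIZ.

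**Figure D3:**
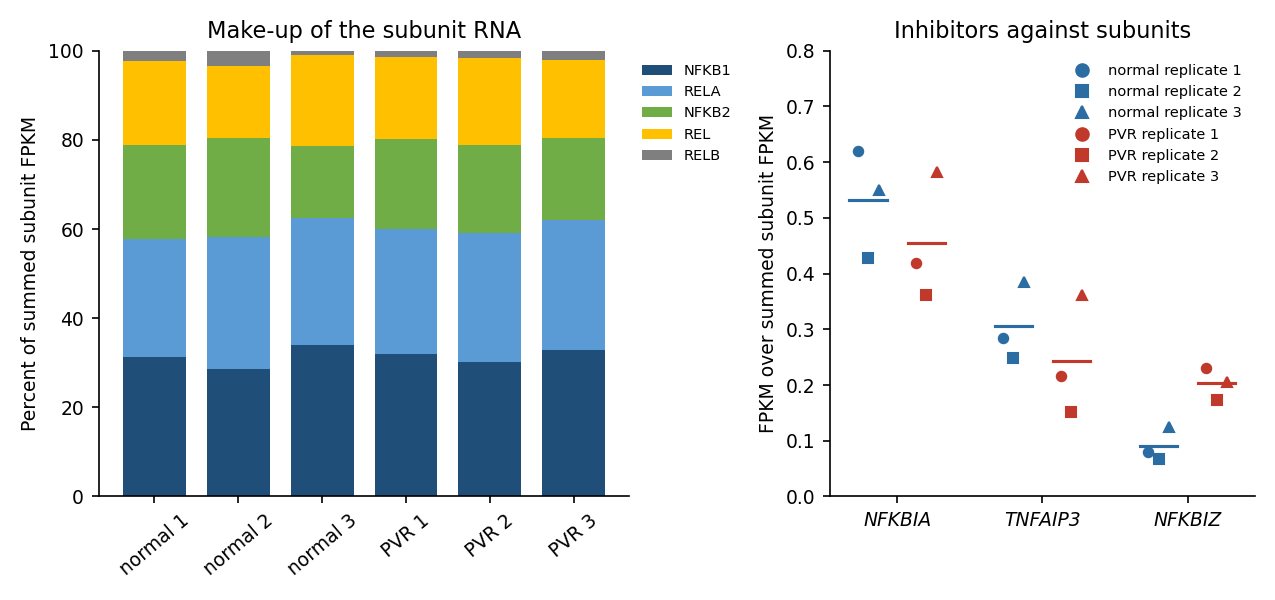
Left, the percent of the summed FPKM of the 5 subunits that each subunit took in every sample; right, the FPKM of NFKBIA, TNFAIP3 and NFKBIZ divided by that sum, with lines at the group means (n = 3). The shares overlap between normal and PVR, and NFKBIZ lies between 0.173 and 0.231 in PVR against 0.0664 to 0.125 in normal retina.

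The kinases and adaptors that carry the signal from receptors to NF-kB did not pass the test. The list held 32 genes, of which 30 had a row and were tested, and none was past an adjusted p of 0.05 in edgeR in either direction. Of all genes tested, 1.7% passed in either direction, so 0 calls do not set a list of this size apart. A single gene, BIRC3, had an unadjusted p under 0.05, and it was also the single call of DESeq2. Among all genes tested, these shares were 11.3% and 5.66% higher in PVR. The median log2 fold change was -0.01, the same as that of all genes. CHUK and IKBKB, the catalytic subunits of the IkB kinase, had log2 fold changes of -0.03 (SE 0.11) and 0.18 (SE 0.13). IKBKG, its regulatory subunit, had -0.12 (SE 0.08), and the adjusted p of these kinase genes was between 0.405 and 0.881 from edgeR. The most abundant genes of the list were TAB2, an adaptor of the kinase TAK1, with an FPKM of 32.1 ± 2.08 in normal retina and 32.5 ± 3.63 in PVR, and BIRC2, a ubiquitin ligase, with 20.7 ± 1.96 and 23.4 ± 1.23 (SD, n = 3). BIRC3, a ubiquitin ligase that is itself a known target of NF-kB, had 128, 159 and 28 counts in normal retina and 495, 779 and 319 in PVR. Its log2 fold change was 2.48 (SE 0.65) with an adjusted p of 0.103 from edgeR and 0.0273 from DESeq2. Every PVR sample was above the normal ones, but both groups were wide.

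The other inhibitors did not pass the test either. All 19 genes of the list were matched and tested, none passed in edgeR or DESeq2, and the median log2 fold change was -0.05. In edgeR 1.7% of all genes passed in either direction, and DESeq2 called 5.66% higher, so 0 calls do not set this short list apart. Only TNIP2, which binds the TNFAIP3 protein, had an unadjusted p under 0.05, against 11.3% of all genes higher in PVR. It had 55, 31 and 40 counts in normal retina and 86, 98 and 70 in PVR, and its log2 fold change was 1.14 (SE 0.37, edgeR adjusted p = 0.151). The most abundant genes were RNF11 and TAX1BP1, which work with the TNFAIP3 protein, with mean FPKM values of 90.6 and 79.5 in normal retina and 83.9 and 74.6 in PVR. Their groups overlapped. NFKBIB, the IkB protein most like that of NFKBIA in its role, had a log2 fold change of -0.27 (SE 0.15, edgeR adjusted p = 0.322).

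Among the ligands and receptors, NGFR rose. NGFR is the low-affinity neurotrophin receptor, a member of the TNF receptor family that can signal to NF-kB. It had 100, 177 and 158 counts in normal retina and 318, 349 and 514 in PVR, and an FPKM of 1.101 ± 0.283 and 3.32 ± 0.303 (SD, n = 3). The log2 fold change was 1.52 (SE 0.24, edgeR adjusted p = 0.0342), and it lost the threshold in 5 of the 15 other settings, with the highest adjusted p at 0.187 without PVR replicate 1. Without normal replicate 1, normal replicate 2 and PVR replicate 2 it was 0.0657, 0.0699 and 0.082. NGFR was 1 of 22 genes tested from a list of 28, of which 26 had a row, and no gene of the list was lower past the test. The median of the list was 0.49, with 16 genes above 0, and 9 of the 22 had every PVR sample above every normal sample, against 17.0% of all genes tested. Past the test in this direction were 1.09% of all genes. DESeq2 called 5 genes, adding IL1R1, IL1RAP, TLR3 and TLR4 to NGFR, and it called 5.66% of all genes in this direction. IL1R1, the signalling receptor of interleukin-1, had 178, 132 and 318 counts in normal retina and 543, 307 and 979 in PVR, where the top normal sample exceeded the lowest PVR sample in counts but not in FPKM (0.833 against 0.996). Its log2 fold change was 1.59 (SE 0.41, edgeR adjusted p = 0.0973). TLR4, the receptor for bacterial lipopolysaccharide, had FPKM values of 0.461, 0.463 and 0.281 in normal retina and 0.987, 1.21 and 0.732 in PVR, and its log2 fold change was 1.20 (SE 0.29, edgeR adjusted p = 0.0867). TLR3, a receptor for double-stranded RNA, had FPKM values of 1.51, 1.88 and 0.557 in normal retina and 3.58, 3.79 and 3.80 in PVR (edgeR adjusted p = 0.114). The most abundant genes of the list were TNFRSF21, with a log2 fold change of 0.12 (SE 0.17), and TNFSF12, with -0.12 (SE 0.26).

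Of the genes known as targets of NF-kB in other cells, CXCL8, CSF1 and SDC4 rose. These 3 were the calls among 29 genes tested from a list of 40, of which 38 had a row, against 1.09% of all genes in this direction; the median was 0.20, with 19 genes above 0 and none lower past the test. CXCL8, a chemokine that attracts neutrophils, had 2, 25 and 1 counts in normal retina and 383, 405 and 369 in PVR. It was nearly absent from 2 of the normal samples and lower in the third than in any PVR sample. Its log2 fold change was 5.47 (SE 0.88, edgeR adjusted p = 0.0359), and it was 8.01 without normal replicate 2, the sample that held most of the normal reads. The adjusted p of CXCL8 was 0.0973 without normal replicate 1, 0.202 without PVR replicate 1 and 0.0858 without PVR replicate 2.

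CSF1, the growth factor of macrophages and microglia, had FPKM values of 0.905, 0.933 and 0.619 in normal retina and 1.94, 2.25 and 1.97 in PVR. For CSF1 the log2 fold change was 1.25 (SE 0.23, edgeR adjusted p = 0.0478). SDC4, a cell-surface proteoglycan, had 27.4, 23.4 and 25.7 in normal retina and 36.6, 36.2 and 35.8 in PVR, where the samples were very close together. Its log2 fold change was 0.44 (SE 0.07, edgeR adjusted p = 0.0415), which is not past a doubling. Both genes were close to the threshold. CSF1 passed in 8 and SDC4 in 7 of the 15 other settings, and with a sample left out CSF1 passed only without normal replicate 3 and SDC4 in none, with adjusted p up to 0.228 for CSF1 and 0.243 for SDC4 without PVR replicate 1.

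In FPKM, 11 of the 29 tested genes of the list had every PVR sample above every normal sample, against 17.0% of all genes tested. In 1 gene every PVR sample was below, against 9.69% of all genes. The 11 included small changes, such as a log2 fold change of 0.17 for CFLAR (edgeR adjusted p = 0.412). IL1B, ICAM1 and JUNB were among the 11 and did not pass the test. IL1B, the main interleukin-1 ligand, had 1, 9 and 1 counts in normal retina and 42, 40 and 44 in PVR, and its log2 fold change was 3.58 (SE 0.78, edgeR adjusted p = 0.0718). ICAM1, an adhesion molecule for leukocytes, had 74, 93 and 11 counts in normal retina and 207, 210 and 299 in PVR (edgeR adjusted p = 0.133). JUNB, an AP-1 subunit, had FPKM values of 7.48, 8.53 and 3.57 in normal retina and 16.6, 19.6 and 10.9 in PVR (edgeR adjusted p = 0.125). Without normal replicate 2, which held most of its normal reads, IL1B had a log2 fold change of 5.34 and an edgeR adjusted p of 0.0415. DESeq2 called these 3 genes as well as CXCL8, CSF1 and SDC4, 6 of the 29, against 5.66% of all genes. IL6 had at most 5 counts and CSF2 had none in any sample, and both were among 9 matched genes of the list that were too low to be tested. The most abundant targets had log2 fold changes below 0 that did not pass. SOD2, a mitochondrial superoxide dismutase, had FPKM values of 132, 131 and 138 in normal retina and 114, 109 and 123 in PVR, and its log2 fold change was -0.28 (SE 0.09, edgeR adjusted p = 0.146). XIAP, an inhibitor of apoptosis, had -0.37 (SE 0.17, edgeR adjusted p = 0.263).

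**Figure D4:**
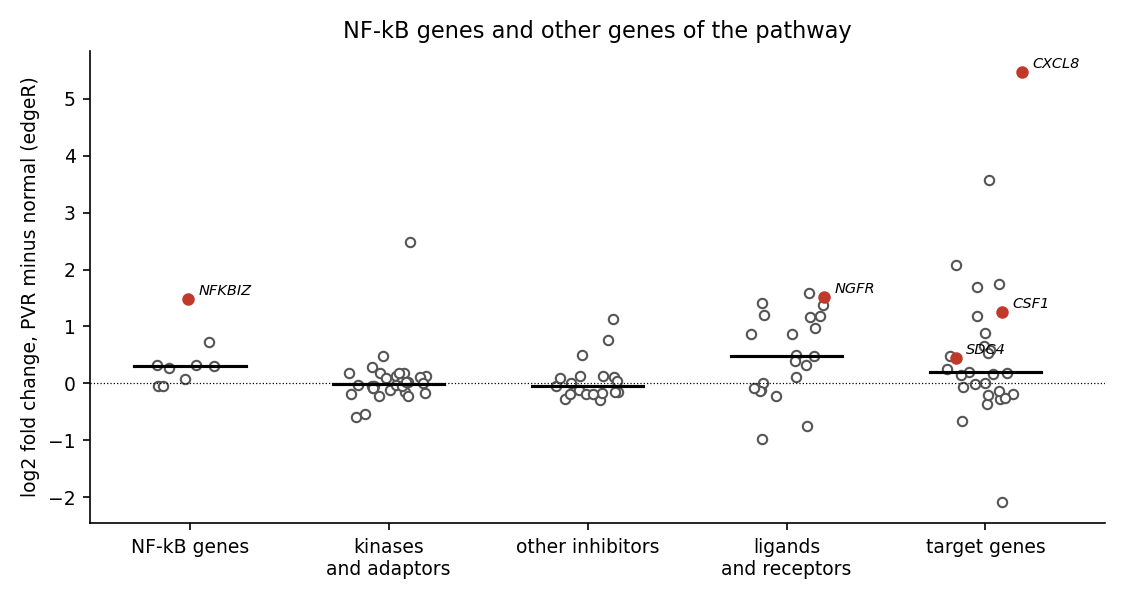
Log2 fold change, PVR minus normal (edgeR, n = 3 in each group), of each tested gene of the NF-kB genes and of 4 lists of other pathway genes; red points with names are past an adjusted p of 0.05 and black lines are list medians. The medians are 0.30 for the NF-kB genes, -0.01 for kinases and adaptors, -0.05 for other inhibitors, 0.49 for ligands and receptors and 0.20 for target genes.

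Markers of several cell types moved with the condition. The 10 markers of microglia and macrophages all had every PVR sample above every normal sample in FPKM, with a summed level of 30.1 to 53.1 CPM in normal retina and 71.4 to 91.2 CPM in PVR and a median log2 fold change of 0.95. None of the 10 passed the edgeR test, 7 had an unadjusted p under 0.05, and DESeq2 called 4. Of all genes tested, 17.0% had every PVR sample above every normal sample. In this direction, 1.09% of all genes passed the edgeR test, 11.3% had an unadjusted p under 0.05 and DESeq2 called 5.66%. The 5 matched neutrophil markers summed to 0.676 to 1.81 CPM in normal retina and 6.54 to 14.7 CPM in PVR. Of these, S100A8 and S100A9 rose (edgeR adjusted p = 0.0486 and 0.0416), whereas MPO had no count in any sample, CSF3R had at most 6 counts and CXCR2 overlapped. Both S100 genes are also made by monocytes and by stressed epithelia. The 9 markers of T and B cells overlapped, at 0.701 to 3.45 CPM in normal retina and 1.59 to 5.48 CPM in PVR.

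Some markers of resident cells fell, as did 0.615% of all genes tested. Of 6 Mueller glia markers, GLUL and RLBP1 fell and the sum overlapped between the groups. GFAP, which reactive glia make, was higher in every PVR sample, with 2236, 7072 and 9885 counts in normal retina and 14372, 15192 and 16979 in PVR, and did not pass the test (log2 fold change 1.39, edgeR adjusted p = 0.143). Of 8 pigment epithelium markers, 7 were tested, TTR and LRAT fell, BEST1 had a log2 fold change of 0.53 (edgeR adjusted p = 0.215), and the sum was 502 to 717 CPM in normal retina and 368 to 386 CPM in PVR. Of 8 endothelial markers, CDH5 and VWF fell, while the sum was 603 to 658 CPM in normal retina and 702 to 724 CPM in PVR, most of it from KDR and FLT1. Of 6 oligodendrocyte markers, MAG and ERMN fell, and the sum was 244 to 1170 CPM in normal retina and 133 to 153 CPM in PVR. The 7 photoreceptor markers all had a log2 fold change below 0, between -0.45 and -0.10, with none past the test in edgeR, 5 with an unadjusted p under 0.05 and 1 called by DESeq2. Of all 18697 genes tested, 1859 were lower with an unadjusted p under 0.05 in edgeR, and DESeq2 called 641 lower. Each of the 10 marker genes named here as having risen or fallen lost its call in at least 1 of the other settings. The part of any of these cell types in the values of NFKBIZ, TNFRSF1A and the subunits was not tested.

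**Figure D5:**
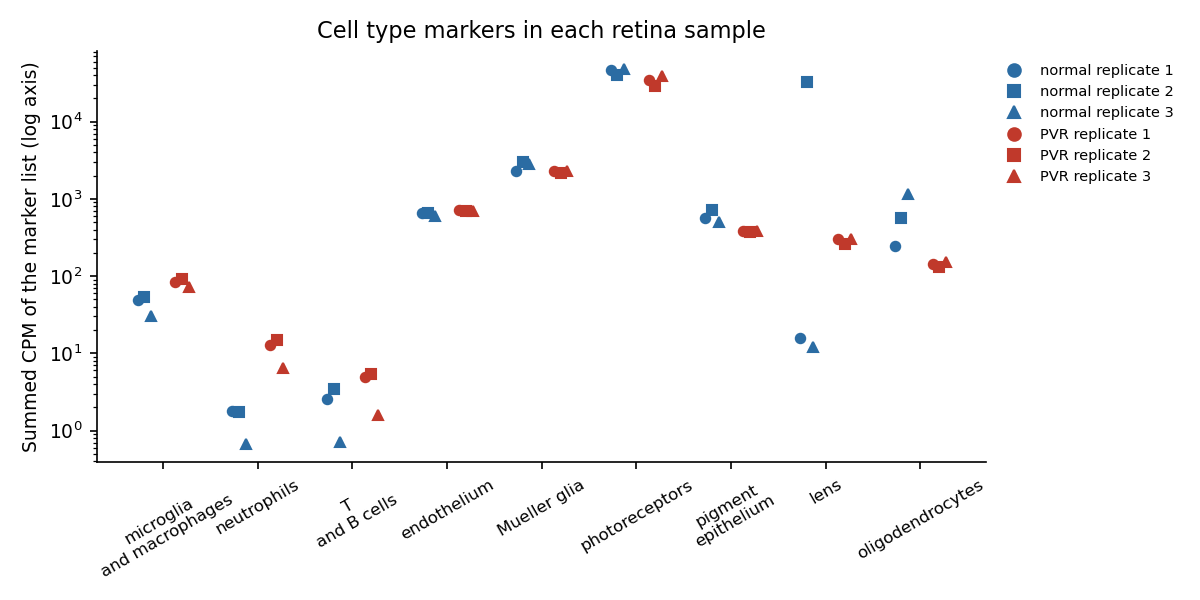
Summed CPM (log axis) of 9 lists of cell type markers in each normal (blue) and PVR (red) retina sample. Microglia and macrophage markers lie at 71.4 to 91.2 CPM in PVR against 30.1 to 53.1 CPM in normal retina, and normal replicate 2 stands apart for lens genes at 32700 CPM.

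The genes whose values over the 6 samples were most like those of NFKBIZ were ADAMTS1, RARRES2 and GPR171. Likeness was the mean absolute difference in log2 CPM after each gene was centred on its own mean, over 9599 genes with a symbol and a mean log2 CPM of at least 3. ADAMTS1, a secreted protease, was nearest at 0.108, with FPKM values of 31.0, 31.7 and 54.2 in normal retina and 102, 98.2 and 101 in PVR. As with NFKBIZ, normal replicate 3 was the highest normal sample. RARRES2, the chemoattractant chemerin, followed at 0.163 and GPR171, a G protein-coupled receptor, at 0.167. As they were picked for this likeness to a gene that differs between the groups, their own difference between the groups is no separate result.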

How the data were processed

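Polyadenylated RNA of 3 normal and 3 PVR rabbit retinas was sequenced. Raw read counts per gene were deposited, which the authors made with HISAT2 (alignment, build OryCun2.0) and HTSeq (counting). The strand setting and the annotation release are not given in the sources used here. The deposited FPKM values are counts per gene length and library total, since the implied length of a gene was the same in all samples (largest relative difference 4.24e-09).

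Counts were tested in R 4.3.3 with edgeR 4.0.16, with its quasi-likelihood model of the 2 groups, TMM factors and the default filter, which left 18697 genes. The p-values of this fit underwent Benjamini-Hochberg adjustment over these genes. Those of each alternative fit were adjusted over its own genes, and those of the permutation tests over the members. "Rose" and "fell" stand for an adjusted p under 0.05. The standard error is the log2 fold change divided by the square root of F, and 95% intervals use edgeR's degrees of freedom. CPM values use TMM-scaled library sizes. Alternatives were DESeq2 1.42.0, limma 3.58.1 (voom, and log2(FPKM + 1) or log2(FPKM + 0.1)), other factors and filters, a block for replicate number, and fits without each sample in turn. On simulated counts for 18697 genes, edgeR recovered 64 of 88 genes changed 4-fold and 40 of 112 changed 2-fold, with 8 false calls among 112.

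Samples of one group differed by more than counting noise (chi-square per degree of freedom 17.1 to 157), so each sample was kept, which does not show that they are separate animals; if they are not, the p-values measure technical spread. Of 119 genes in 4 pathway lists, 113 were matched by symbol or through the RefSeq identifiers of mOryCun1.1, used for names only. Named were all members, list genes past the test, the 2 most abundant of each list, and the 3 genes most like each member past the test. Other genes were named after their values were seen. The members and lists were chosen with earlier results of these data known. Sequences were not used here. Exact permutation tests used SciPy 1.17.1, tables Python 3.11.15 and pandas 2.3.3, and figures matplotlib 3.10.9.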

Additional observations from a re-analysis of the deposited data

How the results depend on the processing

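In every setting that gave a value, NFKB1, NFKB2, REL and RELA stayed above 0 and past no threshold, and NFKBIZ and TNFRSF1A stayed above 0. The number of members higher past an adjusted p of 0.05 was 1, and it was 2 (NFKBIZ and TNFRSF1A) with DESeq2, upper-quartile factors, log2(FPKM + 1) and log2(FPKM + 0.1), and 0 to 1 with a sample left out. With the replicate block it was 0, where NFKBIZ had a log2 fold change of 1.51 and an adjusted p of 0.0743 from edgeR. The replicate numbers are not known to pair the samples. Deviations from the group mean correlated across genes at -0.0129, 0.0734 and 0.0417 for same-numbered samples of the 2 groups. For samples of unlike number the correlations lay between -0.0828 and 0.0427. With 3 samples in each group, these values cannot decide whether the numbers pair the samples. RELB turned to 0.22 with limma-voom, 0.04 with log2(FPKM + 1), 0.19 with log2(FPKM + 0.1) and 0.16 with the replicate block, and to between -0.44 and 0.52 with a sample left out. With a sample left out NFKBIA ranged from -0.08 to 0.17, TNFAIP3 from -0.37 to 0.15, TAB2 from -0.13 to 0.00, TNFRSF21 from -0.09 to 0.28 and TNFSF12 from -0.30 to 0.00. TAB2 was 0.01 on both FPKM scales. The cause of these turns was not tested. Kinases and adaptors gave 1 higher gene with DESeq2 and 1 with the replicate block, BIRC3 both times, in place of 0. Ligands and receptors gave 5 with DESeq2 and 0 to 2 with a sample left out, in place of 1; with the replicate block 1 gene passed, IL1R1 (1.59, edgeR adjusted p 0.0398) in place of NGFR (0.0662). Target genes gave 6 with DESeq2, 0 with the replicate block and 0 to 3 with a sample left out, in place of 3, and 0 to 1 lower (CXCL10 without normal replicate 3, at -2.64 with an edgeR adjusted p of 0.0151). Over all 18697 genes tested, 203 were higher and 115 lower. DESeq2 gave 1089 and 667 over its own 24960 genes, of which 1058 and 641 were among those 18697. The replicate block gave 62 and 30. A sample left out gave 16 to 516 and 6 to 250 over the genes of each fit, both lowest without PVR replicate 1. Lower genes numbered 74 with limma-voom, 55 with log2(FPKM + 1) and 66 with log2(FPKM + 0.1). The difference in the ratio of NFKBIA to the subunits lay between -0.143 and -0.0323 with a sample left out, against -0.0788. TNF, with at most 11 counts in any sample, was too low for a test at this depth, and for RELB the normal samples spread with a coefficient of variation of 62.4%.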
